A study of Mus musculus with 12 samples.

Results

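The genes of the class II antigen presentation pathway were followed by RNA-seq in hematopoietic stem cells (HSCs), the self-renewing bone marrow cells from which all blood lineages descend, of old and young female mice. They were chosen by name, as Cd74, H2-Aa, H2-Ab1, H2-Eb1, H2-DMa, H2-DMb1, H2-DMb2, H2-Oa, H2-Ob and Ciita. Of these 10 genes, 9 were among the 14143 genes of the table and H2-Oa was not analysed here. The 4 groups were old Ly-HSCs, young Ly-HSCs, old My-HSCs and young My-HSCs, with 3 libraries each. The labels speak of 3 independent groups of mice, which makes each p-value a measure of the variation between such groups. All animals were C57BL6J females without a transgene or treatment named in the labels. Old mice were 18 months old and came from the National Institute on Aging colony. Young mice were 8 to 10 weeks old by the sample labels and up to 12 weeks by the protocol, and came from the Jackson Laboratory or the UCLA colony. Age and colony of origin therefore cannot be told apart. HSCs were sorted as cells without mature lineage markers that carried Sca-1 and c-kit and lacked CD48 and CD135. The surface receptor CD150 then divided them into the CD150-low, lymphoid-biased Ly-HSCs and the CD150-high, myeloid-biased My-HSCs. The lineage antibodies covered B cells (B220, IgM), T and NK cells, granulocytes (Gr-1) and erythroid cells (TER-119), and none named in the protocol was directed at class II itself or at the dendritic cell integrin CD11c.

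Class II molecules display peptides from endosomes to CD4+ T cells. Each is a pair of an alpha and a beta chain that leaves the endoplasmic reticulum bound to the invariant chain, the product of Cd74, which blocks the peptide groove and directs the complex to endosomes. Proteases there trim the invariant chain to a short fragment, the H2-DM heterodimer exchanges that fragment for peptide, and the H2-O heterodimer restrains H2-DM. Transcription of the family depends on the coactivator CIITA, which is recruited by the RFX and NF-Y factors bound to the X and Y boxes of the promoters. In bone marrow the pathway is best known from B cells, dendritic cells and macrophages.

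On GRCm38 with the GENCODE M21 annotation, 7 of the 9 genes lie within the histocompatibility region of chromosome 17. From the low to the high coordinate these are H2-DMa (34119541 to 34139101, plus strand), H2-DMb2 (34143307 to 34151555, plus), H2-DMb1 (34153072 to 34160230, plus), H2-Ob (34238903 to 34254414, plus), H2-Ab1 (34257689 to 34269419, plus), H2-Aa (34282744 to 34287823, minus) and H2-Eb1 (34305867 to 34316674, plus).

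Promoter stretches are shown because CIITA acts through them, and to tell apart windows with and without words like both boxes. RefSeq promoter windows on GRCm38.p6, each of 300 bases with 250 before and 50 after the annotated start, were found for H2-Aa, H2-Eb1, H2-DMa (2 starts), H2-DMb1, H2-DMb2 and H2-Ob. H2-Ab1 and Ciita had no window in that table, and none was printed for Cd74. The words searched on both strands were CTNNNAAC, which resembles the core of the X box, and TGATTGG, the Y box with its inverted CCAAT. They were chosen after these sequences had been read. Capitals mark the words, and each stretch is written 5′ to 3′ along the gene's own strand.
H2-Aa (chr17:34287862-34287912, minus strand): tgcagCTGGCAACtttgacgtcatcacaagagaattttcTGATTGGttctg
H2-Eb1 (chr17:34305768-34305817, plus strand): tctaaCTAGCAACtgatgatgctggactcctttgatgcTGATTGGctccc
H2-DMb1 (chr17:34153089-34153139, plus strand): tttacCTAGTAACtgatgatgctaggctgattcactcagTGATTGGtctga
H2-DMb2 (chr17:34145118-34145168, plus strand): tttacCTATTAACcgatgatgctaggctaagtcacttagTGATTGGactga
H2-Ob (chr17:34238810-34238857, plus strand): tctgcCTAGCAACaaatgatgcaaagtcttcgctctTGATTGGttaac
H2-DMa, first start (chr17:34122732-34122781, plus strand): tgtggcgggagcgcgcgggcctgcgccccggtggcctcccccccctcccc
H2-DMa, second start (chr17:34125418-34125467, plus strand): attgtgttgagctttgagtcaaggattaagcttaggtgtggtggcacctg

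In H2-Aa, H2-Eb1, H2-DMb1, H2-DMb2 and H2-Ob both words stood on the gene's strand, with first bases 34, 33, 34, 34 and 31 bases apart in that order of genes. With the annotated start at 0, the first base of the X word was at -84, -94, -97, -126 and -90 in those genes. A second X word on the other strand overlapped the Y word of H2-Ob. Further X words outside the pair stood on the gene's strand at -197 in H2-Aa and at -113 in H2-Eb1. The stretches of H2-DMb1 and H2-DMb2 lie before their RefSeq starts but inside the wider GENCODE M21 span of each gene. Neither H2-DMa window held the pair or the Y word, and the second held an X word on the other strand at -237. The first of them also holds the high-coordinate end (34122634) of Brd2, a gene on the opposite strand. The rest of the H2-DMa span was not searched, so whether the gene has such a pair elsewhere was not tested. The bases from -100 to -51 of each H2-DMa start are printed for comparison, and the window of the first start was 73.0% G and C, against a median of 52.7% over all windows. Of 32851 RefSeq windows of the same length, 41.1% held the X word on either strand, 7.82% the Y word, and 0.225% (74 windows) the pair on one strand with first bases 20 to 50 apart. Since the words were chosen after the members' windows had been read, these shares are no test of the members. A match describes the letters of the window and is not a measured binding site.

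**Figure D1:**
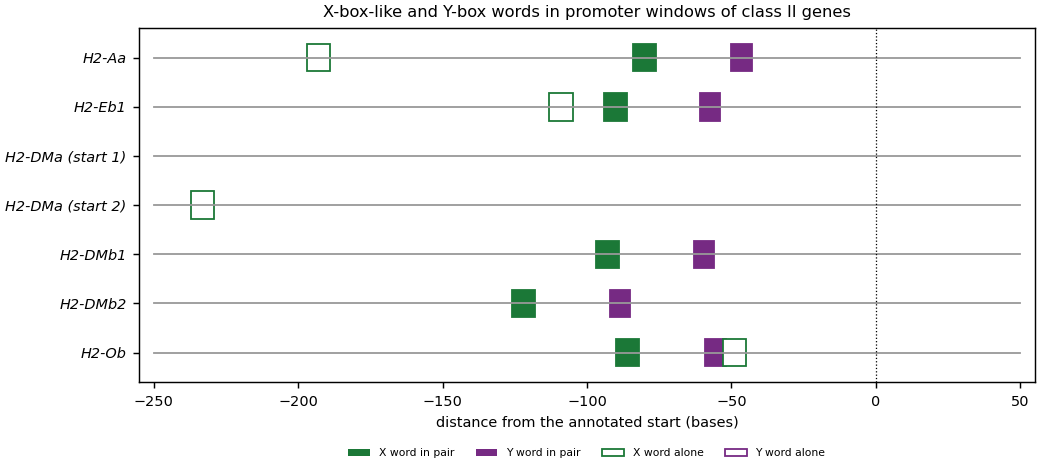
Positions of the X word (green) and the Y word (purple) in the 300-base promoter windows of 6 class II genes, with distance from the annotated start in bases on the horizontal axis; filled boxes belong to a pair on one strand and open boxes stand alone. A pair was found in 5 genes, with X words whose first base lies at -126 to -84, and both H2-DMa starts lack one.

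Values are FPKM, fragment numbers scaled to the length of the gene and to the mapped fragments of the library, so that levels of different genes can be set side by side. FPKM summed to 211455 to 228391 per library, and read totals are unknown. The share of genes listed at exactly 0 was 12.1% to 22.3% in old libraries and 19.3% to 34.1% in young libraries, with the highest share in young Ly-HSC library 1. Libraries of young Ly-HSCs also correlated least with each other across genes (0.706 to 0.789), against 0.838 to 0.951 in old Ly-HSCs, 0.875 to 0.965 in old My-HSCs and 0.817 to 0.887 in young My-HSCs. No class II gene was listed at 0 in any of the 6 old libraries. In young Ly-HSC libraries 1, 2 and 3, 4, 1 and 1 of the 9 genes were listed at 0. The corresponding numbers in young My-HSCs were 3, 1 and 0. The part of depth in these zeros was not tested. All 9 genes reached 1 FPKM in at least 3 of the 12 libraries and so were among the 10900 genes tested, although H2-DMb2 reached it only in 5 old libraries.

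Cd74, the invariant chain, encoded on chromosome 18 (60803848 to 60812652, plus strand), was the most abundant of the 9 genes in every old library. Its level was 175, 274 and 186 FPKM in old Ly-HSC libraries 1, 2 and 3, against 36.6, 38.4 and 47.4 FPKM in young Ly-HSCs. It was 170, 161 and 125 FPKM in old My-HSCs, against 36.7, 52.0 and 64.2 FPKM in young My-HSCs. Every old library stood above every young library. The lowest old value, in old My-HSC library 3, was 125 FPKM and the highest young value, in young My-HSC library 3, was 64.2 FPKM. In bulk libraries such as these, more cells of a type and more RNA per cell cannot be told apart. Cd74 averaged 211.6 ± 54.1 FPKM in old Ly-HSCs and 40.8 ± 5.77 FPKM in young Ly-HSCs (SD, n = 3 each), and 152.0 ± 23.8 FPKM in old My-HSCs and 51.0 ± 13.8 FPKM in young My-HSCs. The order of the group means, from the highest, was old Ly-HSCs, old My-HSCs, young My-HSCs and young Ly-HSCs, and the libraries of the last 2 overlapped.

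The age difference of Cd74 passed the test in both subsets. On the log2(FPKM + 1) scale, old minus young was 2.33 ± 0.24 in Ly-HSCs (standard error, limma with Benjamini-Hochberg adjustment over all genes, adjusted p = 0.0014), and no other gene of the table had a smaller p in that comparison. In My-HSCs it was 1.58 ± 0.24 (limma, adjusted p = 0.0196). Genes with an adjusted p under 0.05 made up 0.349% of those tested in Ly-HSCs (38 of 10900) and 0.211% in My-HSCs (23 of 10900). Cd74 was the 1 class II gene among them in each case. The Ly-HSC call held with any 1 of the 12 libraries left out (adjusted p = 0.000785 to 0.0184), but not with only the 2 compared groups in the fit (2.33, adjusted p = 0.0702). With the share of zeros in a library as a covariate neither call held, at 1.91 (adjusted p = 0.132) in Ly-HSCs and 1.33 (adjusted p = 0.196) in My-HSCs. The My-HSC call also rested on single libraries, since without old My-HSC library 1, 2 or 3 or young My-HSC library 1 or 2 the My-HSC difference was 1.49, 1.53, 1.71, 1.37 or 1.61 (adjusted p = 0.111, 0.125, 0.0868, 0.101 and 0.0691).

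**Figure D2:**
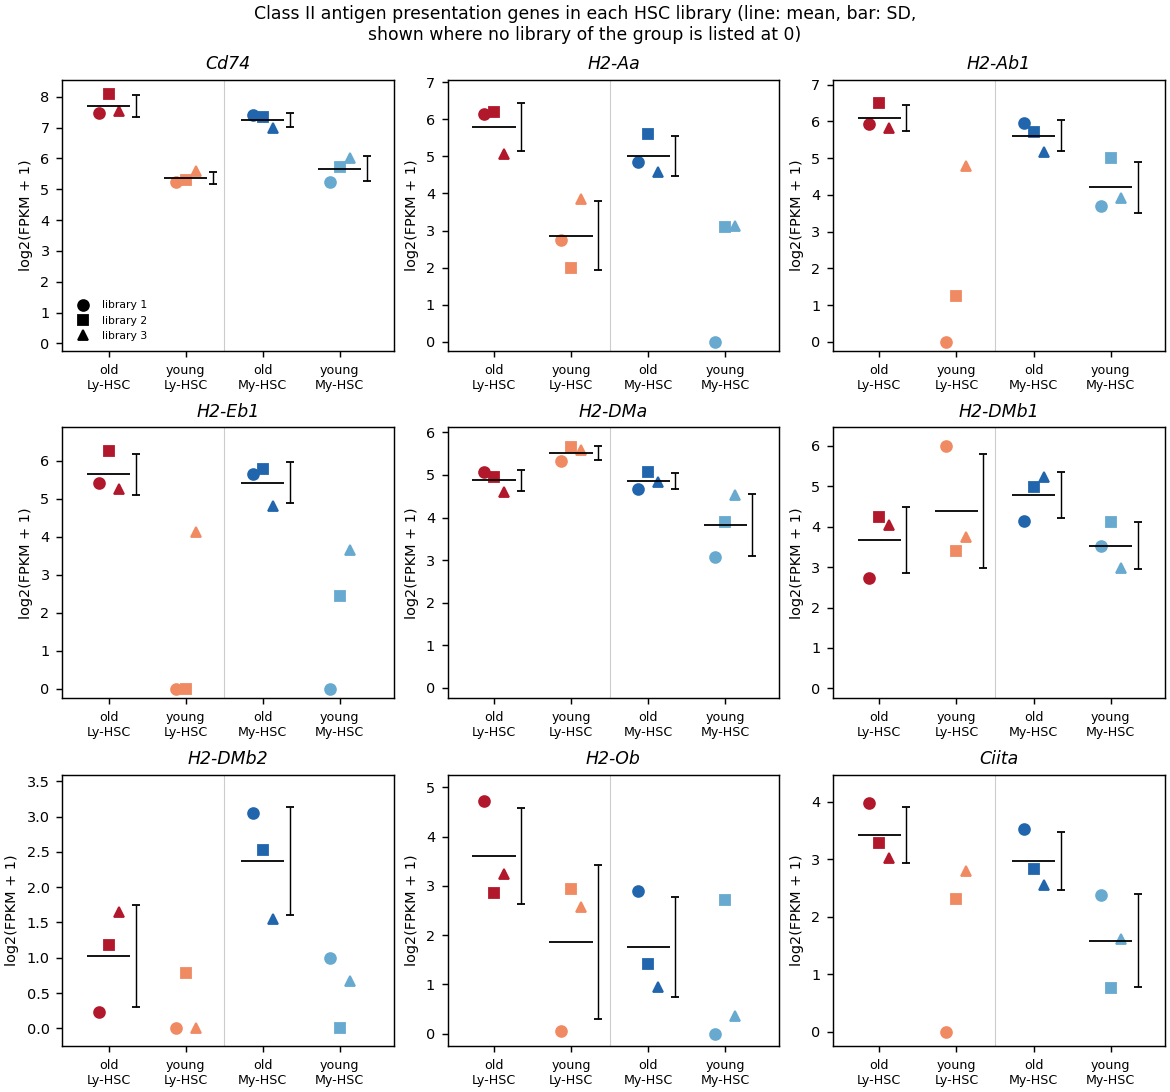
Level of each of the 9 class II genes as log2(FPKM + 1), with 1 panel per gene and 1 point per library; old and young Ly-HSCs are in red tones and old and young My-HSCs in blue tones, and lines and bars give the mean and SD of 3 libraries in groups with no library listed at 0. Old points lie above all young points in the panels of Cd74, H2-Aa, H2-Ab1 and H2-Eb1, whereas old Ly-HSCs lie below young Ly-HSCs in the panel of H2-DMa.

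The chains of the class II molecules themselves were also higher in every old library than in every young one. H2-Aa, the alpha chain of I-A, stood at 70.0, 72.0 and 32.3 FPKM in old Ly-HSCs, against 5.74, 2.97 and 13.3 FPKM in young Ly-HSCs. In My-HSCs the H2-Aa level was 27.9, 47.5 and 22.8 FPKM in old libraries, against 0, 7.53 and 7.79 FPKM in young libraries. The lowest old value was thus 22.8 FPKM and the highest young value 13.3 FPKM. Its age difference was 2.94 ± 0.74 in Ly-HSCs (limma, adjusted p = 0.125) and 2.93 ± 0.74 in My-HSCs (adjusted p = 0.204) on the log2(FPKM + 1) scale.

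H2-Ab1, the beta chain of I-A, was at 60.5, 90.0 and 55.8 FPKM in old Ly-HSCs, against 0, 1.398 and 26.7 FPKM in young Ly-HSCs. In My-HSCs it was at 61.4, 51.8 and 34.8 FPKM in old libraries, against 12.1, 31.0 and 14.0 FPKM in young libraries. Among the young Ly-HSCs, library 3 was near the young My-HSCs and libraries 1 and 2 were close to 0. H2-Ab1 differed with age by 4.07 ± 0.87 in Ly-HSCs (limma, adjusted p = 0.0859) and by 1.41 ± 0.87 in My-HSCs (adjusted p = 0.845). The Ly-HSC difference was 3.07 without young Ly-HSC library 1 (adjusted p = 0.115) and 5.46 without library 3 (adjusted p = 0.000688).

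H2-Eb1, the beta chain of I-E, whose alpha chain is not made in mice of the C57BL/6 background, was nonetheless detected in every old library. It was at 41.7, 75.7 and 37.3 FPKM in old Ly-HSCs, against 0, 0 and 16.5 FPKM in young Ly-HSCs. In My-HSCs the H2-Eb1 level was 49.2, 54.4 and 26.8 FPKM in old libraries, against 0, 4.42 and 11.6 FPKM in young libraries. As with H2-Ab1, library 3 was the highest of the young Ly-HSCs. The age difference of H2-Eb1 was 4.27 ± 1.03 in Ly-HSCs (limma, adjusted p = 0.116) and 3.38 ± 1.03 in My-HSCs (adjusted p = 0.386). In Ly-HSCs it was 3.58 without young library 1 or library 2 (adjusted p = 0.187 and 0.107) and 5.65 without young library 3 (adjusted p = 0.012).

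Cd74, H2-Aa, H2-Ab1 and H2-Eb1 were thus 4 of 9 class II genes with all 6 old libraries above all 6 young ones, an order held by 1.21% of the tested genes (132 of 10900). Without the 4 libraries numbered 1 the order held for 5 of the 9 genes and for 5.09% of the tested genes. The added gene was H2-DMb2, which passed the filter through old libraries alone. Without both young libraries numbered 1 it held for the same 4 genes and for 2.34% of all genes.

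Ciita, the coactivator of the family, encoded on chromosome 16 (10480059 to 10528418, plus strand), was lower than H2-Aa, H2-Ab1 and H2-Eb1 in every old library. It was at 14.7, 8.77 and 7.07 FPKM in old Ly-HSCs, against 0, 3.97 and 5.97 FPKM in young Ly-HSCs. In My-HSCs it was at 10.5, 6.13 and 4.85 FPKM in old libraries, against 4.20, 0.700 and 2.04 FPKM in young libraries. Old and young libraries did not overlap within either subset, but old My-HSC library 3 lay below young Ly-HSC library 3. The Ciita age difference was 1.72 ± 0.70 in Ly-HSCs (limma, adjusted p = 0.325) and 1.39 ± 0.70 in My-HSCs (adjusted p = 0.754). In Ly-HSCs it was 0.87 without young library 1, where Ciita is listed at 0 (adjusted p = 0.52), and 0.59 without all 4 libraries numbered 1 (adjusted p = 0.608). Exons of Ciita share 329 of their 9535 bases with Dexi on the opposite strand. Dexi was at 0.800, 5.12 and 8.33 FPKM in old Ly-HSCs and at 37.9, 8.45 and 1.80 FPKM in young Ly-HSCs, and at 3.09, 3.96 and 2.30 FPKM in old My-HSCs and 1.37, 0.410 and 8.02 FPKM in young My-HSCs. Its old and young libraries overlapped in both subsets.

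None of the peptide-loading genes had all 6 old libraries above all 6 young ones. Within My-HSCs, H2-DMa, H2-DMb1 and H2-DMb2 did have every old library above every young one, as did 11.3% of all tested genes. H2-DMa, the alpha chain of H2-DM, was lower with age in Ly-HSCs and higher with age in My-HSCs. Its level was 32.6, 29.8 and 23.4 FPKM in old Ly-HSCs, against 39.0, 49.1 and 46.8 FPKM in young Ly-HSCs. It was 24.6, 32.4 and 27.6 FPKM in old My-HSCs, against 7.40, 14.0 and 21.9 FPKM in young My-HSCs. Neither pair of groups overlapped, and the group means were 28.6 ± 4.75 FPKM in old Ly-HSCs and 45.0 ± 5.29 FPKM in young Ly-HSCs, and 28.2 ± 3.93 FPKM in old My-HSCs and 14.4 ± 7.26 FPKM in young My-HSCs (SD, n = 3 each). Young Ly-HSCs were thus highest and young My-HSCs lowest, while the 2 old groups overlapped. An order with every old Ly-HSC library below and every old My-HSC library above its young counterparts was held by 0.165% of the tested genes (18 of 10900).

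No single difference of H2-DMa passed the adjusted threshold. Old minus young was -0.64 ± 0.32 in Ly-HSCs (limma, adjusted p = 0.409) and 1.03 ± 0.32 in My-HSCs (adjusted p = 0.406). The difference between these age effects, My-HSCs minus Ly-HSCs, was 1.67 ± 0.45 (95% interval 0.69 to 2.65, limma, unadjusted p = 0.00281, adjusted p = 0.682). For that difference 0% of the tested genes were called, while 616 of 10900 had an unadjusted p under 0.05. Exons of H2-DMa share 360 of their 3448 bases with Brd2, a chromatin reader on the opposite strand. Brd2 was at 74.0, 73.0 and 82.0 FPKM in old Ly-HSCs, against 67.4, 114.7 and 95.2 FPKM in young Ly-HSCs, and at 68.4, 59.7 and 60.5 FPKM in old My-HSCs, against 69.9, 76.8 and 84.4 FPKM in young My-HSCs. Whether the authors counted by strand is not given here, and whether Brd2 reads entered the H2-DMa values was not tested. The young range of Brd2 held all its old values in Ly-HSCs. In My-HSCs its old values were below its young ones, an order whose share over all genes is not given here.

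H2-DMb1, a beta chain of H2-DM, was at 5.62, 17.9 and 15.3 FPKM in old Ly-HSCs, against 62.7, 9.53 and 12.3 FPKM in young Ly-HSCs. In My-HSCs it was at 16.7, 30.3 and 36.6 FPKM in old libraries, against 10.4, 16.3 and 6.82 FPKM in young libraries. Young Ly-HSC library 1 alone stood far above the others for this gene. The age difference was -0.71 ± 0.63 in Ly-HSCs (limma, adjusted p = 0.654), and 0.10 without that library. In My-HSCs, where old and young libraries did not overlap, it was 1.25 ± 0.63 (adjusted p = 0.749).

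H2-DMb2, the other beta chain, was the least abundant of the 9 genes in all 3 old Ly-HSC libraries. It was at 0.177, 1.28 and 2.14 FPKM in old Ly-HSCs, against 0, 0.724 and 0 FPKM in young Ly-HSCs. In My-HSCs its level was 7.26, 4.77 and 1.92 FPKM in old libraries, against 0.993, 0 and 0.595 FPKM in young libraries. The old My-HSCs were the group in which it was highest, and old and young My-HSCs did not overlap. The difference was 0.76 ± 0.54 in Ly-HSCs (limma, adjusted p = 0.563) and 1.82 ± 0.54 in My-HSCs (adjusted p = 0.374). H2-DMb2 entered the test through old libraries alone. H2-DMb1 and H2-DMb2 are closely related copies, and how alike their transcripts are was not measured here. No source used here states how reads were divided between them, so the values of both are uncertain.

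H2-Ob, the beta chain of the H2-DM inhibitor H2-O, had no age order in My-HSCs. It was at 25.4, 6.27 and 8.49 FPKM in old Ly-HSCs, against 0.0450, 6.65 and 4.94 FPKM in young Ly-HSCs. In My-HSCs its level was 6.48, 1.67 and 0.933 FPKM in old libraries, against 0, 5.58 and 0.284 FPKM in young libraries. The groups overlapped in both subsets. Old minus young was 1.75 ± 0.91 in Ly-HSCs (limma, adjusted p = 0.426) and 0.73 ± 0.91 in My-HSCs (adjusted p = 0.957). Without young Ly-HSC library 1 the first value was 0.86 (adjusted p = 0.689), and without all 4 libraries numbered 1 the values were 0.30 in Ly-HSCs and -0.36 in My-HSCs (adjusted p = 0.887 and 0.961).

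Counted together, 7 of the 9 class II genes had a higher fitted level in old than in young Ly-HSCs and 9 of 9 in old than in young My-HSCs. Over all tested genes the shares with a higher fitted level in old cells were 62.4% in Ly-HSCs and 55.8% in My-HSCs, which also stand behind the counts of the pathway lists given further on. The median difference over the 9 genes was 1.75 in Ly-HSCs and 1.41 in My-HSCs, against 0.18 and 0.07 over all tested genes. The 2 comparisons share no library, but their independence is not established. Same-numbered old Ly-HSC and My-HSC libraries deviated together across genes (correlations 0.21 to 0.256), and the fit took its spread from all 12 libraries. In Ly-HSCs, 5 of the 9 genes (Cd74, H2-Aa, H2-Ab1, H2-Eb1 and Ciita) had every old library above every young one, an order that 11.5% of all tested genes showed. H2-DMa had every old library below every young one there, as did 4.5% of all tested genes. In My-HSCs, 8 of the 9 genes, all but H2-Ob, had every old library above every young one, against 11.3% of all tested genes. These counts include H2-DMb2, which passed the filter through old libraries alone.

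**Figure D3:**
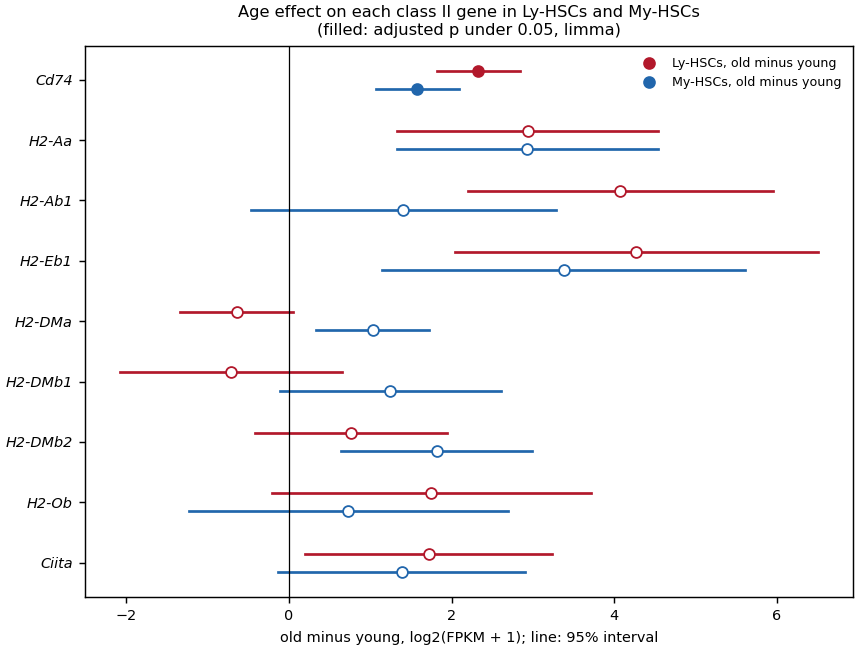
Old minus young difference of each class II gene on the log2(FPKM + 1) scale, in Ly-HSCs (red) and My-HSCs (blue), with 95% intervals from limma as lines and filled points where the adjusted p was under 0.05. Cd74 carries the 2 filled points, at 2.33 and 1.58, and H2-DMa and H2-DMb1 lie on opposite sides of 0 in the 2 subsets.

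An exact permutation test of the age labels within each subset, over both subsets at once, needs no model of the spread, but takes the subsets as independent. Its smallest possible two-sided p is 0.005, from 400 arrangements. Cd74, H2-Aa, H2-Ab1, H2-Eb1 and Ciita each reached it, with mean age differences of 1.95, 2.93, 2.74, 3.82 and 1.55 on the log2(FPKM + 1) scale (exact p = 0.005, adjusted p = 0.149 over all tested genes). All 6 old libraries of each of these genes lay above the young libraries of their own subset, and 3.35% of all tested genes also had this p. Same-numbered old Ly-HSC and My-HSC libraries deviated together across genes. With same-numbered libraries of an age kept together, a test added after seeing the data, 20 arrangements remain and the smallest possible p is 0.1, which Cd74, H2-Aa, H2-Ab1, H2-Eb1, H2-DMb2 and Ciita had (exact p = 0.1 each). That test was run for the class II genes only, so the share of all genes at this p is unknown. In the test with 400 arrangements H2-DMb2 had a mean difference of 1.29 (exact p = 0.015) and H2-Ob one of 1.24 (exact p = 0.12). H2-DMb2 passed the filter through old libraries alone, so its p for age is no independent support. For H2-DMb1 and H2-DMa, whose age differences had opposite signs in the subsets, the means were 0.27 (exact p = 0.68) and 0.19 (exact p = 0.615). Of all tested genes, 13.7% had an unadjusted exact p under 0.05 and 0 passed after adjustment.

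The relative amounts of the members also differed. The summed level of the 9 genes was 425.8, 575.5 and 367.6 FPKM in old Ly-HSCs, against 144.1, 112.7 and 173.9 FPKM in young Ly-HSCs. In My-HSCs the sum was 374.2, 389.6 and 281.3 FPKM in old libraries, against 71.8, 131.5 and 129.2 FPKM in young libraries. Every old sum was above every young sum. As a share of that sum, Cd74 took 41.1% to 50.5% in old Ly-HSCs, 25.4% to 34.0% in young Ly-HSCs, 41.2% to 45.5% in old My-HSCs and 39.5% to 51.1% in young My-HSCs. The young Ly-HSCs were the group with the lower share.

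The level of H2-DMa relative to Cd74 in the same library set the young Ly-HSCs apart. The H2-DMa value was 18.6%, 10.9% and 12.6% of the Cd74 value in old Ly-HSCs, against 106.0%, 128.0% and 98.7% in young Ly-HSCs. In old My-HSCs it was 14.4%, 20.1% and 22.0%, against 20.1%, 26.9% and 34.1% in young My-HSCs. H2-DMa was thus about as abundant per length as Cd74 in young Ly-HSCs and lower than Cd74 in every library of the other groups. H2-Ab1, by comparison, stayed between 27.8% and 36.1% of Cd74 in the 6 old libraries, and ranged from 0% to 59.6% in the young ones. H2-Eb1 was at 20.1% to 33.8% of Cd74 in old libraries and at 0% to 34.9% in young libraries, and H2-Aa at 16.4% to 39.9% in old libraries and at 0% to 28.1% in young libraries.

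**Figure D4:**
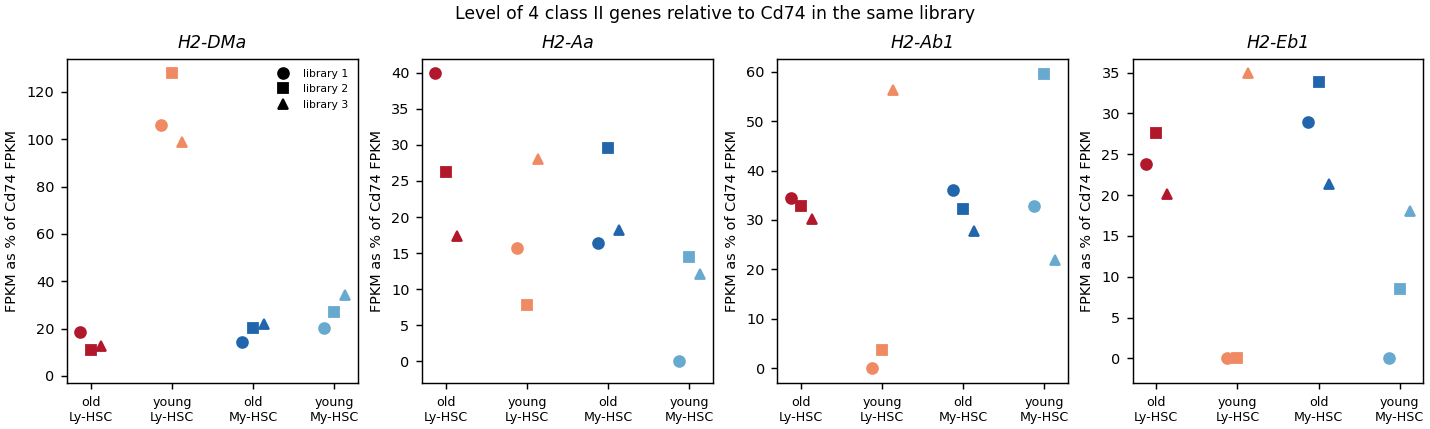
Level of H2-DMa, H2-Aa, H2-Ab1 and H2-Eb1 as a percentage of the Cd74 level in the same library (vertical axes, FPKM over FPKM), 1 point per library for old and young Ly-HSCs (red tones) and old and young My-HSCs (blue tones). H2-DMa is at 98.7% to 128.0% of Cd74 in young Ly-HSCs and at 10.9% to 34.1% elsewhere, while H2-Ab1 and H2-Eb1 are scattered in young and close together in old libraries.

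The 2 subsets were then compared at each age. In old mice Cd74 was lower in My-HSCs than in Ly-HSCs in every library, with 170, 161 and 125 FPKM in old My-HSCs, against 175, 274 and 186 FPKM in old Ly-HSCs, an order that 7.53% of all tested genes had in this direction. Its difference, My-HSCs minus Ly-HSCs, was -0.46 ± 0.24 (limma, unadjusted p = 0.0741, adjusted p = 1.0). H2-DMb2 had the smallest p of the 9 genes there, with a difference of 1.35 ± 0.54 (limma, unadjusted p = 0.0275, adjusted p = 1.0), and its groups overlapped. No class II gene was called in this comparison, in which 0.0275% of all tested genes were (3 of 10900).

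In young mice H2-DMa was lower in every My-HSC library than in every Ly-HSC library, an order held by 4.41% of all tested genes. Its difference was -1.69 ± 0.32 (95% interval -2.38 to -0.99, limma, unadjusted p = 0.000155, adjusted p = 0.0585), which misses the threshold with all libraries in the fit. Leaving out library 1 or library 2 of the young Ly-HSCs gave -1.78 (adjusted p = 0.0491) and -1.62 (adjusted p = 0.0405), which pass. These were the 2 of 25 alternatives in which H2-DMa passed, and the others missed the threshold as well. H2-Ab1 was higher in young My-HSCs by 2.19 ± 0.87 (limma, adjusted p = 0.29), by 1.18 (adjusted p = 0.489) without young Ly-HSC library 1 and by 3.57 (adjusted p = 0.0217) without young Ly-HSC library 3. No class II gene was called in young mice with all libraries, where 0.119% of all tested genes were (13 of 10900).

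Over both ages, H2-DMa was the 1 class II gene with an unadjusted exact p under 0.05 for the subset, at -0.85 for My-HSCs minus Ly-HSCs (exact permutation test, p = 0.045, adjusted p = 0.42), and 10.7% of all tested genes had such a p. That p ran from 0.02 to 0.1 over 16 alternatives and was 0.05 or more in 10 of them. The other 8 genes had exact p-values from 0.075 to 0.895. Apart from H2-DMa, the differences between the age effects of the 2 subsets had unadjusted p-values of 0.0434 for Cd74 (-0.75 ± 0.33), 0.0459 for H2-DMb1 (1.96 ± 0.89) and 0.0488 for H2-Ab1 (-2.66 ± 1.23), none of which passed after adjustment by limma (adjusted p = 0.867 each). The other 5 genes had unadjusted p-values from 0.193 to 0.995.

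Across the 12 libraries the members fell into genes that varied together and genes that did not. The following Pearson correlations of log2(FPKM + 1) are descriptions over 12 libraries that share the 2 ages and differ in the share of zeros, and they carry no test. Cd74 correlated at 0.91 with H2-Eb1, 0.89 with H2-Aa, 0.80 with H2-Ab1 and 0.71 with Ciita, but at 0.12 with H2-DMa and 0.02 with H2-DMb1. H2-Aa and H2-Eb1 correlated at 0.91 and H2-Ab1 and H2-Eb1 at 0.88. Ciita correlated at 0.72 with H2-Ab1, 0.69 with H2-Eb1, 0.57 with H2-Aa and -0.44 with H2-DMb1. H2-DMa correlated at 0.18 with H2-DMb1, its partner chain in the H2-DM heterodimer.

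Among all tested genes, the most similar to Cd74 over the 12 libraries were Eya4, an eyes-absent family phosphatase and coactivator (0.948), Aspa, the enzyme aspartoacylase (0.943), Stxbp4 (0.94), the BMP receptor Bmpr1a (0.937) and the galactosyltransferase B3galt1 (0.925). H2-Eb1 was at rank 8 and H2-Aa at rank 14 for Cd74. The closest to H2-Aa were Gclm, the modifier subunit of the glutathione-forming ligase (0.927), Manf (0.922) and Prkar2b, a regulatory subunit of protein kinase A (0.916), with H2-Eb1 at rank 4 (0.91), followed by Ufm1, a ubiquitin-like modifier (0.906). For H2-Ab1 they were the histone variant H2afz (0.947), Fam219b (0.938), the guanylate-binding protein Gbp4 (0.938), the pantothenate kinase Pank3 (0.934) and Gcsh (0.931). For H2-Eb1 they were Il18r1, a chain of the interleukin 18 receptor (0.948), 2410016O06Rik (0.929), the kinesin Kif20a (0.917), B3galt1 (0.912) and Golt1b (0.91). The nearest to H2-DMa were the interferon-induced Ifi27 (0.947), Dcaf12 (0.933), the gamma actin gene Actg1 (0.912), Gtf3c3 (0.902) and Nicn1 (0.895), none of them a class II gene. Among the genes closest to Ciita were Actr10 (0.91), Zfp946 (0.898), Faf1 (0.892) and the granule protease Prtn3 (0.885). H2-DMb1 was nearest to Slc35f5 (0.955), Api5 (0.931), Snrpn (0.903), Zfx (0.9) and Myeov2 (0.896), and H2-DMb2 to Emp2 (0.944), Churc1 (0.92), Hoxc6 (0.904), Nkapl (0.902) and Gdf15 (0.884). H2-Ob was nearest to Zfp119b (0.942), Emilin2 (0.903), Serpinb1a (0.885), Cxxc1 (0.876) and Traf3ip2 (0.875). H2-Aa, with H2-Eb1, was the 1 member with another class II gene among its 5 nearest.

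The other genes of the pathway were taken from lists by role, and none of those outside the 9 class II genes passed the adjusted threshold in either age comparison. The transcription machinery, with the RFX and NF-Y subunits, Creb1 and Ciita, had 7 of 8 genes higher in old Ly-HSCs and 4 of 8 higher in old My-HSCs. Its median differences of 0.18 and 0.02 were near those of all tested genes, at 0.18 and 0.07, and Ciita had the smallest p of the list in both subsets. Rfx5, the DNA-binding RFX subunit, was at 46.1, 46.7 and 43.4 FPKM in old Ly-HSCs, against 32.7, 60.2 and 30.5 FPKM in young Ly-HSCs, so the young range held all old values.

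Of the interferon gamma pathway, which induces Ciita, 8 of 9 genes were higher in old Ly-HSCs (median 0.70) and 6 of 9 in old My-HSCs (median 0.19). Ifngr1, a receptor chain, had the smallest p in Ly-HSCs, with 66.2, 28.1 and 36.7 FPKM in old libraries, against 29.0, 17.6 and 18.1 FPKM in young libraries. Young library 1 lay above old library 2, and the difference was 0.93 ± 0.34 (limma, adjusted p = 0.265). Jak1, the receptor-bound kinase, had the smallest p in My-HSCs (0.41 ± 0.18, adjusted p = 0.619).

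Of the endosomal proteases and their regulators, 7 of 7 tested genes were higher in old cells of either subset, with median differences of 0.54 in Ly-HSCs and 1.18 in My-HSCs. Cst3, the cathepsin inhibitor cystatin C, led the list. It was at 87.6, 36.9 and 41.5 FPKM in old Ly-HSCs, against 15.5, 8.55 and 22.9 FPKM in young Ly-HSCs, and at 24.7, 50.1 and 51.8 FPKM in old My-HSCs, against 14.1, 11.8 and 15.2 FPKM in young My-HSCs. All 6 old libraries lay above all 6 young ones. The Cst3 differences were 1.75 ± 0.41 in Ly-HSCs (limma, adjusted p = 0.109) and 1.49 ± 0.41 in My-HSCs (adjusted p = 0.303). Ctss, the cathepsin best known for trimming the invariant chain, was at 45.6, 10.4 and 14.8 FPKM in old Ly-HSCs, against 23.9, 21.0 and 0 FPKM in young Ly-HSCs, and the groups overlapped.

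March8, a ubiquitin ligase that removes membrane proteins including class II, was the 1 tested gene of surface turnover, with differences of 0.87 ± 0.50 in Ly-HSCs and 0.94 ± 0.50 in My-HSCs (limma, adjusted p = 0.465 and 0.776). Besides its chaperone role, CD74 at the cell surface binds the cytokine MIF together with CD44 and CXC chemokine receptors. Of these partners, Cxcr4 differed by 1.83 ± 0.73 in Ly-HSCs (limma, adjusted p = 0.315). Cxcr2, also a neutrophil marker, was at 14.5, 1.82 and 1.02 FPKM in old My-HSCs, against at most 0.237 FPKM in young My-HSCs (2.03 ± 1.02, adjusted p = 0.75), and entered the test through its old libraries, of which library 1 was the highest. Among costimulatory and inhibitory ligands, 4 of 5 tested genes were higher in old Ly-HSCs and 5 of 5 in old My-HSCs. Cd274, which encodes PD-L1, was at 54.9, 55.9 and 55.7 FPKM in old Ly-HSCs, against 22.3, 38.2 and 25.3 FPKM in young Ly-HSCs (0.97 ± 0.31, limma, adjusted p = 0.213). In My-HSCs the smallest p of this list belonged to Pdcd1lg2, which encodes PD-L2 (0.84 ± 0.60, adjusted p = 0.901).

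The class I pathway, which presents cytosolic peptides, is the most closely related list. Of its 9 tested genes, 9 were higher in old Ly-HSCs and 5 in old My-HSCs, with median differences of 0.27 and 0.12. B2m, H2-K1, H2-D1, Nlrc5, Calr and Canx were not analysed here, so the list describes processing genes and not the presenting chains. Psmb8, an immunoproteasome subunit encoded in the same chromosomal region, had the smallest p in both subsets (0.91 ± 0.21 in Ly-HSCs, 0.76 ± 0.21 in My-HSCs, limma, adjusted p = 0.102 and 0.311). The summed level of the 9 class I genes was 502 to 592 FPKM in old Ly-HSCs, against 417 to 493 FPKM in young Ly-HSCs, and 467 to 569 FPKM in old My-HSCs, against 413 to 483 FPKM in young My-HSCs. No test compared the 2 lists.

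Since B cells, dendritic cells and macrophages also express class II, their markers were read in the same libraries. The 12 B lineage markers summed to 7.56 to 32.6 FPKM in old Ly-HSCs, against 0.16 to 18.4 FPKM in young Ly-HSCs, and to 9.06 to 43.0 FPKM in old My-HSCs, against 3.55 to 27.1 FPKM in young My-HSCs. The 10 dendritic cell markers summed to 10.4 to 31.4 FPKM in old Ly-HSCs, against 2.58 to 23.3 FPKM in young Ly-HSCs, and to 4.76 to 28.7 FPKM in old My-HSCs, against 2.26 to 6.12 FPKM in young My-HSCs. The 10 monocyte and macrophage markers summed to 17.1 to 51.6 FPKM in old Ly-HSCs, against 0.0629 to 20.2 FPKM in young Ly-HSCs, and to 16.3 to 41.2 FPKM in old My-HSCs, against 19.1 to 50.6 FPKM in young My-HSCs. Old and young sums overlapped in each of these 6 comparisons, but some sums were mostly 1 gene. Flt3, which encodes the sorting antigen CD135, gave 22.0 FPKM of the highest young dendritic sum, 23.3 FPKM in young Ly-HSC library 2. In young Ly-HSC library 3 nearly all of the sum of 21.9 FPKM was Flt3. Cd68 gave 42.8 FPKM of the highest young My-HSC and 19.3 FPKM of the highest young Ly-HSC monocyte and macrophage sum.

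Gene by gene, several markers were listed at 0 in all 6 young libraries and above 0 in at least 1 old library. These were 6 of the 10 dendritic cell markers and 2 of the 10 monocyte and macrophage markers. In the other lists they were 4 of 8 T and NK cell, 1 of 12 B lineage and 1 of 6 erythroid markers. The share of all genes with this order was not counted. Of all genes, 19.3% to 34.1% were listed at 0 in young libraries, against 12.1% to 22.3% in old ones. Of the monocyte markers, the receptor gene Cx3cr1 was at 0.144 to 0.969 FPKM in all 6 old libraries and listed at 0 in all 6 young ones, and Cd14 was at up to 2.72 FPKM in old libraries. Ly6c2 was at 34.6, 0.739 and 0.412 FPKM in old Ly-HSCs, against 0 in each young Ly-HSC library, and at 18.3, 2.53 and 1.77 FPKM in old My-HSCs, against 0, 0 and 0.229 FPKM in young My-HSCs. Defining markers were low in most libraries but not at 0 throughout. Ms4a1, which encodes the B cell antigen CD20, was under 1 FPKM in 11 of 12 libraries, Itgax, which encodes CD11c, in 11 of 12 and Adgre1, which encodes the macrophage antigen F4/80, in 11 of 12. Itgax was listed at 0 in all 6 young libraries and in 1 of 6 old ones, and reached 1.65 FPKM in the old ones. Cd79a, a B cell receptor chain, was above 0 in all 6 old libraries and listed at 0 in 4 of 6 young ones, with the smallest p of its list in Ly-HSCs (1.72 ± 0.56, limma, adjusted p = 0.215), while Cd79b was above 0 in all 12 libraries at up to 15.2 FPKM in old and 15.4 FPKM in young cells. No marker of these 3 types was called in either age comparison, and their part in the age difference of the class II genes was not tested.

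Old libraries numbered 1 were the highest of their group for several markers. The 3 neutrophil markers analysed summed to 260, 20.5 and 29.4 FPKM in old Ly-HSCs, against 0.369, 15.4 and 33.1 FPKM in young Ly-HSCs, and to 208, 29.6 and 22.6 FPKM in old My-HSCs, against 0.0247, 6.97 and 4.70 FPKM in young My-HSCs. The 6 erythroid markers behaved similarly, with sums of 101.0, 24.2 and 17.9 FPKM in old Ly-HSCs, against 13.2 to 14.4 FPKM in young Ly-HSCs, and 85.3, 12.6 and 19.7 FPKM in old My-HSCs, against 9.51 to 24.1 FPKM in young My-HSCs. Among the class II genes, Ciita and H2-Ob were highest in library 1 of both old groups, while Cd74 was highest in library 2 of the old Ly-HSCs and in library 1 of the old My-HSCs. Without all 4 libraries numbered 1 the age difference of Cd74 was 2.38 in Ly-HSCs (limma, adjusted p = 0.0191) and 1.28 in My-HSCs (adjusted p = 0.171), and the part of these markers in it was not tested. The 8 T and NK cell markers summed to 6.83 to 15.6 FPKM in old Ly-HSCs, 4.08 to 32.5 FPKM in young Ly-HSCs, 20.3 to 27.4 FPKM in old My-HSCs and 6.80 to 19.5 FPKM in young My-HSCs. The 10 HSC markers analysed summed to 374 to 459 FPKM in old Ly-HSCs, 457 to 620 FPKM in young Ly-HSCs, 574 to 701 FPKM in old My-HSCs and 575 to 650 FPKM in young My-HSCs, so markers of the labelled cell type were present in all 12 libraries. One of them, Ly6a, which encodes the sorting antigen Sca-1, was called in Ly-HSCs, with 52.2, 30.4 and 11.7 FPKM in old libraries, against 3.83, 3.15 and 1.24 FPKM in young libraries (2.96 ± 0.55, limma, adjusted p = 0.044).

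**Figure D5:**
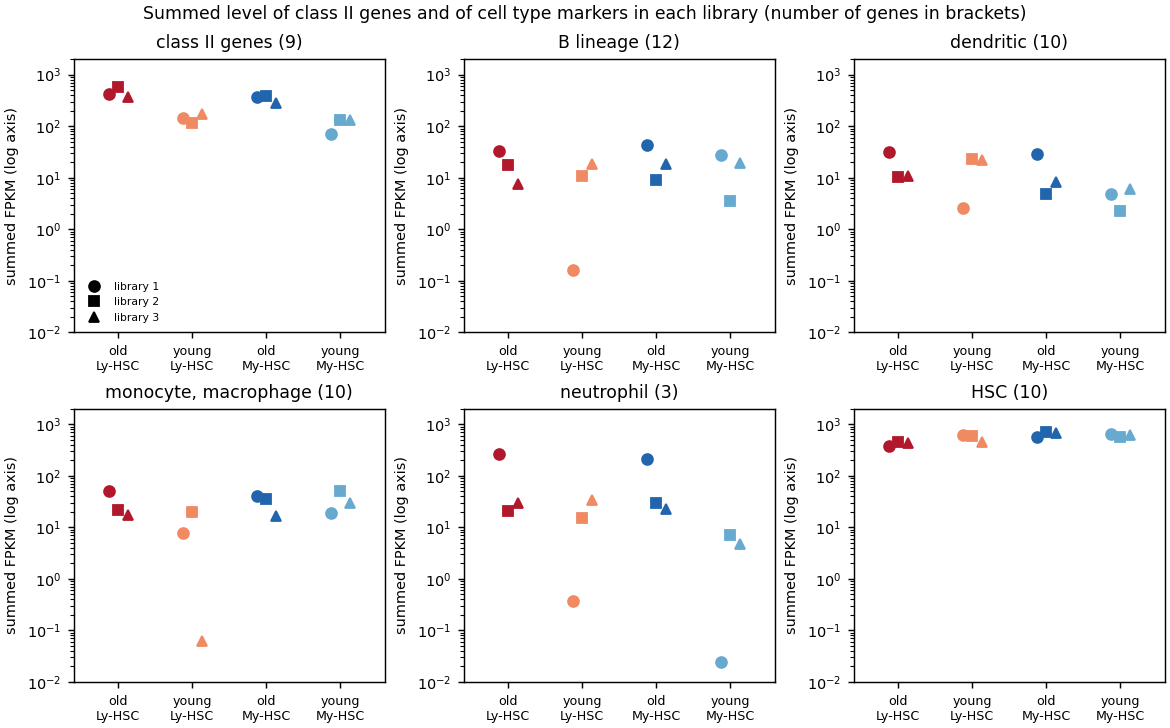
Summed FPKM (log axis) of the 9 class II genes and of 5 marker lists in each library, with old left of young in Ly-HSCs (red tones) and My-HSCs (blue tones) and the number of summed genes in brackets. The class II sums are 281.3 to 575.5 FPKM in old and 71.8 to 173.9 FPKM in young libraries. Old and young sums overlap in the B lineage, dendritic, and monocyte and macrophage panels, and libraries numbered 1 stand out in the neutrophil panel.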

How the data were processed

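RNA-seq of 12 libraries was analysed from the authors' deposited table of FPKM per gene. RNA was extracted with Direct-Zol and made into libraries with the KAPA stranded mRNA kit, read as paired ends of 150 bases on a HiSeq3000, per the labels' protocols. Per the submitters' processing notes, GRCm38 (mm10), STAR, bcl2fastq 2.17 and DESeq2 were used, without their roles; no source used here states the annotation, strand setting or treatment of multi-mapped fragments. Of 14143 gene identifiers, 14139 matched GENCODE M21 without the version suffix. Read totals are unknown, since steps between low FPKM values gave no single answer for relative depth, so no counting intervals are given.

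Values were taken as log2(FPKM + 1) for the 10900 genes with at least 1 FPKM in at least 3 libraries; a fold change on this scale understates changes of low genes. A model of the 4 group means was fitted to all genes with limma 3.58.1 in R 4.3.3 (trended prior, two-sided, Benjamini-Hochberg adjustment over all genes). Both it and the exact permutation test were run on simulated data with independent normal noise of the same spread in all groups. In the real groups the median SD ran from 0.28 to 0.68, so the simulated data cannot show how the tests behave here. The 9 members were all described; for each pathway list the gene with the smallest p in old minus young was named, besides called genes, and Rfx5, Ctss, Cx3cr1, Cd14, Ly6c2, Flt3, Cd68 and the defining markers were named after their values had been seen. The 5 genes with the highest correlation were named for each member, except 1 gene that is not reported here. The members, lists and words were chosen with earlier results of these data known. Alternatives covered the pseudocount, filter, scaling, covariates, variance model, libraries in the fit and each left-out library. Same-numbered old Ly-HSC and My-HSC libraries deviated together (correlations 0.256, 0.233 and 0.21 across genes). Numbers were taken into account only in alternatives, and the main fit and main exact test did not pair libraries. For young libraries these correlations were 0.002 to 0.048, and across ages -0.039 to 0.01.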

Additional observations from a re-analysis of the deposited data

Results flagged for a closer look

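The fitted age effect on H2-DMa, the alpha chain of H2-DM, had opposite signs in the 2 subsets. Neither effect passed adjustment, at -0.64 in Ly-HSCs and 1.03 in My-HSCs (limma, adjusted p = 0.409 and 0.406). Every old Ly-HSC library was below every young Ly-HSC library, and every old My-HSC library was above every young My-HSC library. Of all tested genes, 0.165% had this order (18 of 10900). The difference of the age effects, My-HSCs minus Ly-HSCs, was 1.67 on the log2(FPKM + 1) scale (limma, unadjusted p = 0.00281), and it did not pass adjustment over all genes (adjusted p = 0.682). It ranged from 1.29 to 2.01 over 23 alternatives.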

How the results depend on the processing

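Over 24 alternatives Cd74 stayed higher in old cells, at 1.91 to 2.45 in Ly-HSCs (adjusted p 0.000785 to 0.132, under 0.05 in 22) and 1.28 to 1.76 in My-HSCs (adjusted p 0.00433 to 0.196, under 0.05 in 14). In Ly-HSCs no class II gene was called (0) with the share of zeros as covariate (Cd74 1.91) or with only the groups compared (Cd74 2.33), 2 were called without both young libraries numbered 1, and 1 to 3 when each library was left out, among them H2-Aa without young My-HSC library 1. In My-HSCs 0 were called with a pseudocount of 0.1 (Cd74 1.60), as TPM (1.55), with the share of zeros as covariate (1.33), without the 4 libraries numbered 1 (1.28) and without both young libraries numbered 1 (1.37), the last 2 added after seeing the data; 2 were called with 1 weight per group, and 0 to 1 with each library left out (Cd74 1.37 to 1.76). For My-HSCs minus Ly-HSCs in young mice each left-out library gave 0 to 1 called. For the subset effect over both ages the count of members under an exact p of 0.05 was 0 as TPM and with median-of-ratios scaling, and 0 to 3 with each library left out. For the age effect over both subsets it was 0 with same-numbered libraries of an age kept together, where no p under 0.1 is possible. The cause was not tested, except that the last fits hold fewer libraries.

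H2-DMb1 turned positive in Ly-HSCs, at 0.57 without the 4 libraries numbered 1 and 0.10 without both young ones, with -1.20 to 0.10 over left-out libraries; H2-Ob was -0.36 in My-HSCs without the 4. Quantile normalization moved the all-gene median in Ly-HSCs from 0.183 to 0.027. Over all genes, calls ran from 0 to 223 in Ly-HSCs and 0 to 71 in My-HSCs. With the replicate block, Cd74 was 2.33 (adjusted p = 0.00847) and 1.58 (adjusted p = 0.0384), and no call of a class II gene changed; pairing by age and number gave 0 called members between subsets. Zeros in young libraries limit what the low genes can show.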
